A study of Homo sapiens with 16 samples.

Results

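The genes described here are 10 enzymes and carriers of serine synthesis and one-carbon metabolism, chosen by name: PHGDH, PSAT1, PSPH, SHMT1, SHMT2, MTHFD1, MTHFD1L, MTHFD2, ALDH1L2 and SLC25A32. The deposited table held 64792 gene identifiers, and each of the 10 symbols matched a single one. All 10 passed the filter on low counts and were among the 14690 genes tested. The study profiled polyadenylated RNA of DU145 cells, a line grown from a human prostate tumour, by single-end sequencing of 75-base reads. Its 16 libraries fell into 4 groups of 4: control cells (Ctrl), cells given lactate, cells given I-BET762, an inhibitor of the BET family of chromatin readers, and cells given both agents. All 16 titles and source names give DU145 and the labels name no engineered allele, but the cell line field of the 4 samples with both agents carries other line numbers. The titles were followed here, so every comparison with that group rests on them. The labels gave no dose and no exposure time, and called the 4 replicates of a group independent.

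Serine is made from the glycolytic intermediate 3-phosphoglycerate in a short chain of reactions catalysed by PHGDH, PSAT1 and PSPH. Serine hydroxymethyltransferases, SHMT1 in the cytosol and SHMT2 in the mitochondrion, convert serine to glycine and pass its side-chain carbon to tetrahydrofolate. In the mitochondrion MTHFD2, MTHFD1L and ALDH1L2 carry that carbon on towards formate or carbon dioxide, SLC25A32 brings folates across the inner membrane, and in the cytosol MTHFD1 returns formate to the folate pool for purine and thymidylate synthesis. ATF4, a transcription factor of the amino acid stress response, is a known activator of the serine enzymes and of the mitochondrial folate enzymes.

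Library totals ran from 10711859 counts, in lactate replicate 1, to 17173584 counts, in lactate replicate 3. HEXIM1, a gene that BET inhibitors are known to raise, went against the labels of 2 libraries. It stood at 135.1 CPM, the counts of a gene scaled to a common library size, in the library labelled control replicate 2 against 70.01 to 77.38 in the other controls, and at 89.58 CPM in the library labelled I-BET762 replicate 2 against 113.3 to 148.8 in the others of that label. Lactate replicates 1 and 4 also stood apart: across genes, their log2 CPM relative to the mean of all libraries fell with exon length (Spearman rho -0.40 and -0.42), against 0.24 and 0.10 in lactate replicates 2 and 3. Fits without these 4 libraries were also run, and values from them are given for some of the results. The epithelial keratin KRT8 was at 737.3 to 1426 CPM and the prostate marker KLK3 at no more than 1 count in any library, and the T-cell and fibroblast markers CD3E and DCN were at 0 throughout.

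The plot of CPM by library shows the 10 genes in the 4 groups. Levels of different genes were set side by side per kilobase of exon. In control cells PSAT1 was the most abundant (467 ± 90.9 CPM per kb, SD, n = 4), followed by MTHFD2 (117 ± 14.4) and SHMT2 (67.4 ± 8.55). PHGDH, MTHFD1 and PSPH came next with mean levels of 34.0, 30.9 and 30.5 CPM per kb, and the ranges of neighbours in that order overlapped. MTHFD1L had a mean level of 9.30, SHMT1 of 3.60 and ALDH1L2 of 2.63 CPM per kb, the last 2 with overlapping ranges, and SLC25A32 was the lowest at 0.139. Exon length here joins all annotated exons of a gene, 9.22 kb for PHGDH, 2.19 kb for PSAT1 and 2.76 kb for PSPH. The gaps between genes and their order therefore depend on that definition. Before division by length the control means were 1023 CPM for PSAT1, 312.9 for PHGDH and 84.16 for PSPH. PSAT1 was thus the highest of the serine synthesis enzymes on either scale. In lactate-treated cells the ranges of MTHFD2 (80.3 ± 6.75 CPM per kb, SD, n = 4) and SHMT2 (79.2 ± 10.5) overlapped, which they did in none of the other 3 groups.

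**Figure D1:**
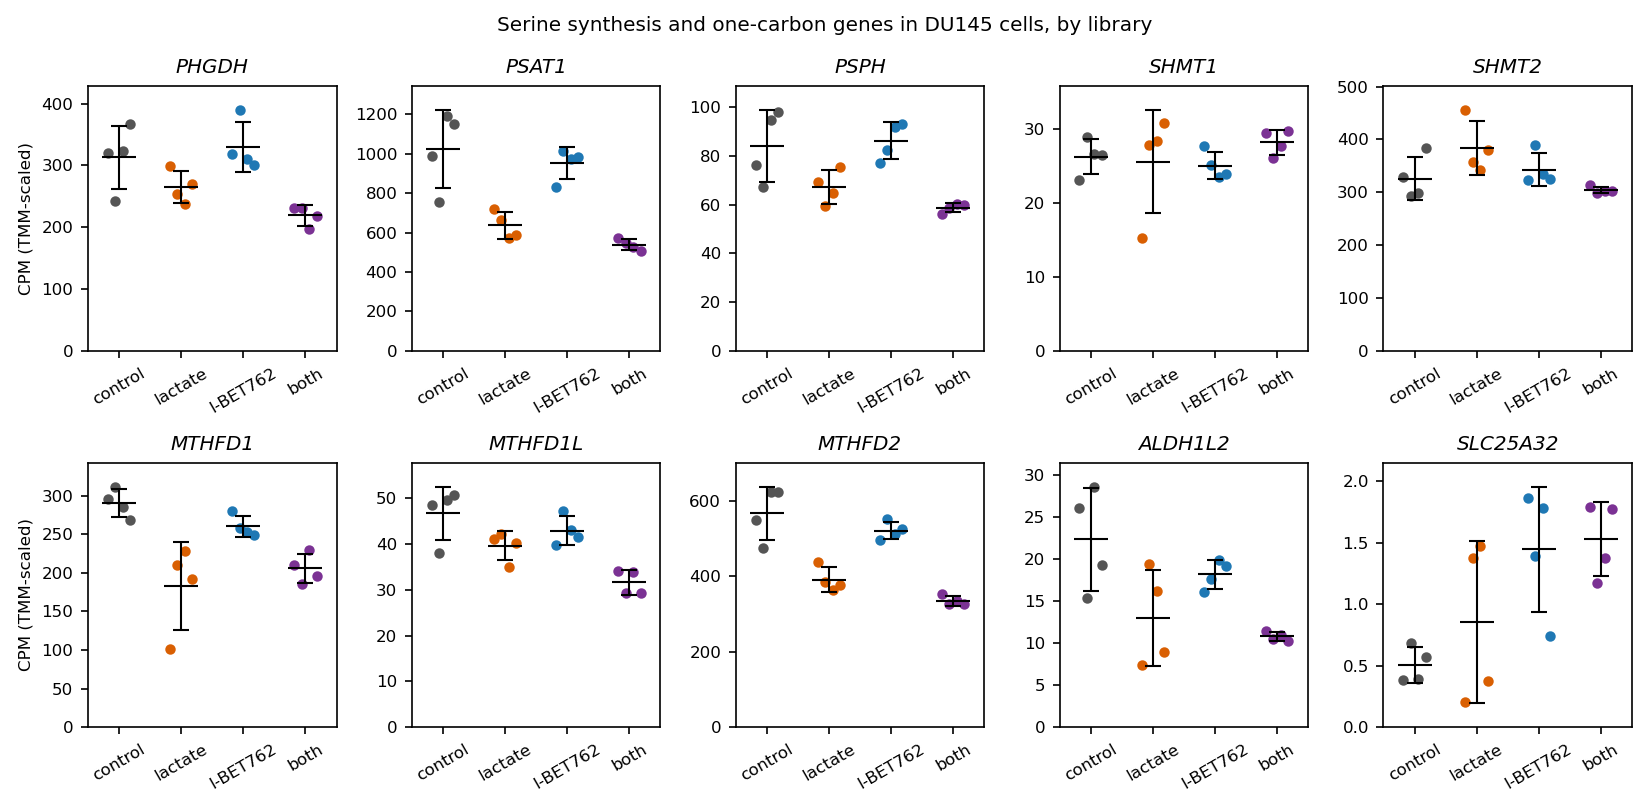
Expression of the 10 genes in each library. The vertical axis of each panel is CPM after TMM scaling, points are single libraries, the wide horizontal line is the group mean and the bars are ± SD (n = 4). PSAT1 and MTHFD2 are lower in each of the 8 libraries with lactate than in any of the 8 without it, while the 4 groups of SHMT1 overlap.

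Promoter sequence was examined for the members for which it was available. The RefSeq promoter table (GRCh38.p14, 250 bases before to 50 after a start site) held 6 of the 10 members: PHGDH, PSAT1, SHMT1, MTHFD1, MTHFD1L and MTHFD2. The motifs were searched on both strands, where N is any base: the C/EBP-ATF response element TGATGNAAN bound by ATF4, the E-box CACGTG bound by MYC, and the antioxidant response element core TGACNNNGC bound by NRF2. The stretches before the first annotated exon of PSAT1 (chr9:78296875-78297124, plus strand) and MTHFD2 (chr2:74198365-74198561, plus strand) are shown because these members fell in both comparisons of lactate with its absence, given below; neither holds any of the 3 motifs. The stretch of MTHFD1L (chr6:150866347-150866376, plus strand) is shown because it holds the one C/EBP-ATF element found, in capitals.
PSAT1: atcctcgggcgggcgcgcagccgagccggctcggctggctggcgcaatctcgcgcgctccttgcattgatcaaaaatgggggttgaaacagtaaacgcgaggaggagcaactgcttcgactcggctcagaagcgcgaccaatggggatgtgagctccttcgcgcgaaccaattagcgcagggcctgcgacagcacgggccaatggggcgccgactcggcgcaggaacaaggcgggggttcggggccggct
MTHFD2: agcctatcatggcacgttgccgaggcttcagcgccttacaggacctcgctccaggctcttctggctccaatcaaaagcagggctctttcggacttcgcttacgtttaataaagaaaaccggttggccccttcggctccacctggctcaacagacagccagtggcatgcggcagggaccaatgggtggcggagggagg
MTHFD1L: ccgccggctcTGATGCAATcgcgccgggcg
The C/EBP-ATF element was found in 1 of the 6 members (MTHFD1L) and in 4.45% of the 27305 genes in the table. The E-box was found in 2 of 6 (MTHFD1 and MTHFD1L) and in 8.77% of all genes. The antioxidant response element core was found in 1 of 6 (MTHFD2, on the opposite strand 7 bases past the start site) and in 16.1% of all genes. A match or its absence in these windows is a description of letters and says nothing of binding in these cells.

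Two-sided tests below come from edgeR's quasi-likelihood model of all 16 libraries, with Benjamini-Hochberg adjustment over the 14690 genes, and a gene is called changed at an adjusted p under 0.05. Lactate can be compared with its absence in 2 ways that share no library: lactate against control, and both agents against I-BET762. PSAT1, the aminotransferase of serine synthesis, and MTHFD2, the mitochondrial methylene-tetrahydrofolate dehydrogenase, fell in both. In lactate against control 4 members fell (PSAT1, MTHFD1, MTHFD2 and ALDH1L2) and none rose, where 10.1% of all tested genes fell and 13.6% rose. With both agents against I-BET762, 5 members fell (PHGDH, PSAT1, PSPH, MTHFD1L and MTHFD2) and none rose, where 1.57% of all tested genes fell and 3.34% rose. PSAT1 and MTHFD2 are the overlap, 50% of the first set of 4 and 40% of the second set of 5. Lactate libraries lay wholly below the controls for 3 members (PSAT1, MTHFD1 and MTHFD2) and for 9.12% of tested genes. Libraries with both agents lay wholly below those with I-BET762 for 8 members, all but SHMT1 and SLC25A32, and for 11.3% of tested genes. The median log2 fold change of the 10 members was -0.28 in lactate against control and -0.50 in both agents against I-BET762, beside medians of 0.03 and 0.005 over all tested genes. These are bulk measurements, in which fewer expressing cells and less RNA per cell cannot be told apart.

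PHGDH oxidises 3-phosphoglycerate and opens the serine pathway. It lies on chromosome 1 at 119648411 to 119744226, plus strand, as do all coordinates of this section on GRCh38. Its level was 319.3, 242.9, 322.7 and 366.8 CPM in control replicates 1 to 4, and 299.2, 253.5, 237.2 and 269.2 CPM in the lactate libraries. It was 319.0, 389.6, 309.8 and 300.3 CPM with I-BET762, and 231.8, 230.5, 196.3 and 217.5 CPM with both agents. The 4 libraries with both agents lay below all 12 others, whereas lactate alone overlapped the controls because the library labelled control replicate 2 was low. PHGDH fell 1.51-fold in both agents against I-BET762 (log2 fold change -0.59, SE 0.13, adjusted p = 0.0123) and was not called in lactate against control (-0.24, SE 0.13, adjusted p = 0.162). Without the library labelled control replicate 2 the latter was -0.35 with an adjusted p of 0.0485. The former was called under all 28 alternatives of processing and left-out libraries. Its log2 fold change there ran from -0.675 to -0.501, with adjusted p-values of at most 0.0468.

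PSAT1, which makes phosphoserine from the product of PHGDH, lies on chromosome 9 at 78297143 to 78330093, plus strand. Its level was 989.6, 755.1, 1194 and 1152 CPM in the controls and 719.3, 664.7, 571.5 and 588.9 CPM with lactate. It was 832.5, 1015, 973.0 and 983.0 CPM with I-BET762 and 570.9, 547.9, 527.1 and 506.0 CPM with both agents. No library with lactate reached the lowest library without it. PSAT1 fell 1.61-fold in lactate against control (log2 fold change -0.69, SE 0.13, adjusted p = 0.00237) and 1.77-fold in both agents against I-BET762 (-0.82, SE 0.13, adjusted p = 0.00178). These calls held under all 28 alternatives of processing and left-out libraries, with adjusted p-values in lactate against control of at most 0.0445.

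PSPH removes the phosphate from phosphoserine to give serine, and lies on chromosome 7 at 56011051 to 56051604, minus strand. Its level was 76.47, 67.37, 94.58 and 98.23 CPM in the controls and 69.34, 59.25, 64.83 and 75.40 CPM with lactate. It was 77.24, 82.54, 91.87 and 93.12 CPM with I-BET762 and 56.24, 58.76, 60.34 and 59.91 CPM with both agents. The libraries with both agents lay below all controls and all I-BET762 libraries, and those with lactate alone overlapped the controls. PSPH fell 1.47-fold in both agents against I-BET762 (log2 fold change -0.55, SE 0.12, adjusted p = 0.0142), a call lost without I-BET762 replicate 3 (adjusted p = 0.0508) or 4 (0.0551). In lactate against control its log2 fold change was -0.33 (SE 0.12, adjusted p = 0.058), and it was called there with DESeq2 (adjusted p = 0.0385), with correction for GC content (0.0407) and without the library labelled control replicate 2 (0.0215) or lactate replicate 1 (0.0484). Reads of the pseudogene PSPHP1 were counted apart, 2579 in all beside 17327 for PSPH, and how reads shared by near-identical copies were divided is not given in the sources used here.

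The enzymes that take the carbon from serine were called in neither comparison of lactate with its absence. SHMT2, the mitochondrial form (chromosome 12 at 57229327 to 57234935, plus strand), was at 329.8, 292.5, 298.4 and 382.9 CPM in the controls and at 455.6, 356.4, 341.2 and 379.8 CPM with lactate. It was at 323.1, 389.9, 333.8 and 325.3 CPM with I-BET762 and at 313.2, 299.2, 301.8 and 301.9 CPM with both agents. Lactate libraries overlapped the controls, while every library with both agents was below every I-BET762 library and every lactate library. SHMT2 was called in none of the 5 pairwise comparisons: its log2 fold change was 0.23 in lactate against control (SE 0.11, adjusted p = 0.13) and -0.17 in both agents against I-BET762 (SE 0.11, adjusted p = 0.429). The first value became -0.04 after correction for GC content, and was 0.33 and called (adjusted p = 0.0429) without control replicate 4.

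SHMT1, the cytosolic form (chromosome 17 at 18327860 to 18363563, minus strand), was at 23.14, 28.83, 26.53 and 26.46 CPM in the controls and at 15.25, 27.77, 28.36 and 30.81 CPM with lactate. It was at 27.66, 25.07, 23.46 and 23.93 CPM with I-BET762 and at 29.43, 26.02, 27.66 and 29.65 CPM with both agents. The 4 groups overlapped, and the lowest library was lactate replicate 1, one of the pair that stood apart by exon length. SHMT1 was not called in any comparison, with log2 fold changes of -0.03 in lactate against control (95% interval -0.37 to 0.31) and 0.17 in both agents against I-BET762 (-0.17 to 0.51). Without lactate replicates 1 and 4 the first value was 0.10.

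MTHFD2, which oxidises the mitochondrial one-carbon unit, lies on chromosome 2 at 74198562 to 74217565, plus strand. Its level was 550.5, 475.7, 622.5 and 622.6 CPM in the controls and 438.4, 386.1, 363.4 and 376.6 CPM with lactate. It was 495.4, 551.2, 512.5 and 526.0 CPM with I-BET762 and 354.2, 326.2, 333.9 and 327.5 CPM with both agents. As for PSAT1, no library with lactate reached the lowest library without it. MTHFD2 fell 1.45-fold in lactate against control (log2 fold change -0.54, SE 0.10, adjusted p = 0.00211) and 1.55-fold in both agents against I-BET762 (-0.64, SE 0.10, adjusted p = 0.00171). Both calls held under all 28 alternatives, with adjusted p-values in lactate against control of at most 0.0499.

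MTHFD1L, the mitochondrial formate-releasing synthetase, lies on chromosome 6 at 150865549 to 151101887, plus strand. Its level was 48.44, 38.09, 49.59 and 50.71 CPM in the controls and 41.18, 42.13, 34.93 and 40.19 CPM with lactate. It was 39.69, 47.21, 43.12 and 41.52 CPM with I-BET762 and 34.03, 29.27, 33.85 and 29.37 CPM with both agents. The libraries with both agents were below all 12 others, and those of the other 3 groups overlapped. MTHFD1L fell 1.36-fold in both agents against I-BET762 (log2 fold change -0.44, SE 0.11, adjusted p = 0.0318), a call lost under 8 of 28 alternatives, 6 of which leave out a single library of these 2 groups (I-BET762 replicates 2, 3 and 4 and both-agent replicates 2, 3 and 4). The highest adjusted p among the 8 was 0.138, without the filter on low counts. In lactate against control it was -0.24 (SE 0.11, adjusted p = 0.123), and it was called there without the library labelled control replicate 2 (adjusted p = 0.0444).

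ALDH1L2, which oxidises mitochondrial formyl-tetrahydrofolate to carbon dioxide, lies on chromosome 12 at 105019784 to 105084577, minus strand. Its level was 26.06, 15.40, 28.64 and 19.29 CPM in the controls and 7.422, 19.45, 16.19 and 8.931 CPM with lactate. It was 16.04, 17.67, 19.90 and 19.15 CPM with I-BET762 and 11.41, 10.52, 11.01 and 10.31 CPM with both agents. The lowest lactate values were those of replicates 1 and 4, and replicates 2 and 3 lay within the range of the controls. ALDH1L2 fell 1.71-fold in lactate against control (log2 fold change -0.77, SE 0.25, adjusted p = 0.0327), but not without lactate replicates 1 and 4 together (-0.33, adjusted p = 0.255). The call was lost under 8 of 28 alternatives in all, among them correction for GC content (-0.62, adjusted p = 0.0808), correction for GC content and exon length (-0.56, 0.0701) and the compared groups fitted alone (-0.78, 0.139). It was also lost without lactate replicate 1 (-0.59, adjusted p = 0.0599), lactate replicate 4 (-0.63, 0.104), control replicate 1 (-0.69, 0.0831) or control replicate 3 (-0.63, 0.111) alone. ALDH1L2 did not overlap between both agents and I-BET762, and the log2 fold change of -0.75 (SE 0.25) had an adjusted p of 0.0932, or 0.0291 without lactate replicate 1, which adds to the shared estimate of the spread.

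SLC25A32, the mitochondrial folate carrier, had only 259 counts over the 16 libraries. It had 6, 9, 6 and 8 counts in the controls (0.506 ± 0.145 CPM, SD, n = 4) and 2, 20, 26 and 5 counts with lactate (0.856 ± 0.661 CPM). It had 27, 19, 30 and 12 counts with I-BET762 (1.45 ± 0.511 CPM) and 26, 17, 20 and 26 counts with both agents (1.53 ± 0.303 CPM). The libraries with I-BET762, alone or with lactate, were all above the controls, and the lactate libraries were split, replicates 1 and 4 being low. The gene shares 2547 exon bases on the same strand with AC012213.5, which had 0 counts, so reads of that stretch may have been left uncounted and the level of SLC25A32 is uncertain. It also shares 406 exon bases on the opposite strand with DCAF13, which had 22876 counts, and with the strand setting unknown reads of that stretch cannot be told apart. It lies on chromosome 8 at 103398635 to 103415189, minus strand.

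MTHFD1, the cytosolic enzyme that draws formate into the folate pool, lies on chromosome 14 at 64388031 to 64463457, plus strand. Its level was 295.5, 311.8, 285.2 and 268.0 CPM in the controls and 101.3, 209.6, 228.6 and 192.5 CPM with lactate. It was 280.2, 258.3, 252.8 and 249.5 CPM with I-BET762 and 210.0, 186.0, 230.1 and 196.5 CPM with both agents. Every library with lactate was below every library without it, and lactate replicate 1 was far below the other 3. MTHFD1 fell 1.58-fold in lactate against control (log2 fold change -0.66, SE 0.17, adjusted p = 0.013), and the value without lactate replicates 1 and 4 was smaller, -0.40 (adjusted p = 0.00907). The call was lost when those groups were fitted alone (adjusted p = 0.0867). Its value in both agents against I-BET762 was -0.34 (SE 0.17, adjusted p = 0.295), and -0.33 with an adjusted p of 0.0185 without lactate replicate 1.

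**Figure D2:**
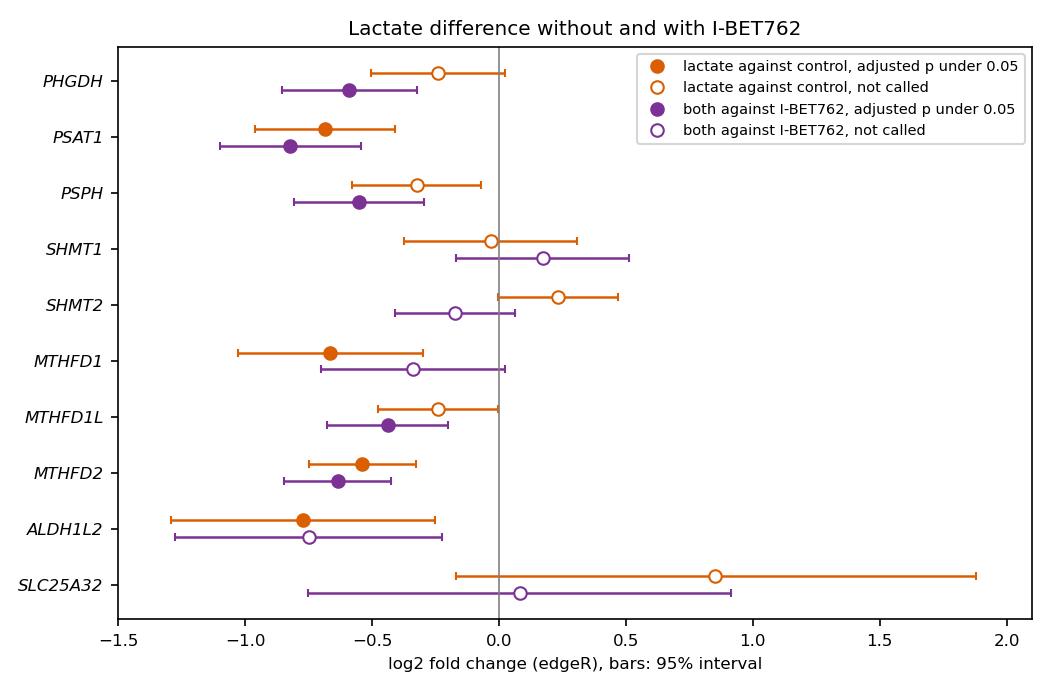
Lactate difference of each gene, without I-BET762 (lactate against control, orange) and with it (both agents against I-BET762, purple). The horizontal axis is the log2 fold change from edgeR with its 95% interval, and filled points have an adjusted p under 0.05; PSAT1 and MTHFD2 are filled in both, and the interval of SLC25A32 is the widest.

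Single libraries bear on how many members were called. In lactate against control the count of 4 became 7 without the library labelled control replicate 2, all lower, with PHGDH, PSPH and MTHFD1L added, and it was 7 without that library and I-BET762 replicate 2 together. Without lactate replicates 1 and 4 it was 5, of which 4 were lower. Over all genes the calls went from 3486 (1483 lower) to 2752 (1085 lower) without control replicate 2, 2579 (993 lower) without it and I-BET762 replicate 2, and 2940 (1189 lower) without lactate replicates 1 and 4. The count of 5 in both agents against I-BET762 became 3 without I-BET762 replicate 3 and 3 without I-BET762 replicate 4, and 7 without lactate replicate 1. The calls over all genes moved alongside, from 720 (230 lower) to 347 (100 lower), 307 (85 lower) and 1672 (610 lower). Over all genes, fold changes moved with GC content (Spearman rho across genes 0.43 in lactate against control and 0.25 in both agents against I-BET762) and with exon length (-0.34 and -0.10). The GC values were larger, 0.53 and 0.51, in I-BET762 against control and in both agents against control. For log2 CPM relative to the mean of all libraries, rho on GC content was -0.55 to -0.30 in the controls and -0.19 to 0.44 in the other libraries. With correction for GC content 4 members were called in lactate against control, where ALDH1L2 lost its call and PSPH gained one, and 5 in both agents against I-BET762, all of them lower. With correction for GC content and exon length together the counts were again 4, with the same loss and gain, and 5. The first correction made 54.9% of the all-gene calls of both agents against I-BET762 higher ones, where they had been 68.1%.

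I-BET762 alone called no member against control, where 0.442% of all tested genes rose and 0% fell. With correction for GC content the calls over all genes went from 65 to 0. At an unadjusted p under 0.05 there was 1 member, SLC25A32, where there were 1682 of the 14690 tested genes. By adjusted p, limma-voom called 0 members and 0 genes, and DESeq2 called 1 member and 542 genes. SLC25A32 was higher in each I-BET762 library than in any control, as were 7.73% of tested genes, with a log2 fold change of 1.51 (SE 0.46, adjusted p = 0.12), called by DESeq2 (adjusted p = 0.0393). The log2 fold changes of the other members lay between -0.30 (ALDH1L2, 95% interval -0.81 to 0.21) and 0.07 (PHGDH, -0.19 to 0.34). For PSAT1 the interval was -0.38 to 0.17 and for MTHFD2 -0.34 to 0.09. The lactate estimates of -0.69 and -0.54 lay below these, with intervals of their own of -0.96 to -0.41 and -0.75 to -0.33. For MTHFD2 the lactate and I-BET762 intervals overlapped, and for PSAT1 they did not. Both comparisons use the same control libraries, so this overlap is no test of a difference. Lactate alone was not tested against I-BET762 alone. Over the 28 alternatives the I-BET762 value went as low as -0.258 for PSAT1 and -0.227 for MTHFD2, and neither was called. Those alternatives include leaving out the libraries whose HEXIM1 level went against their labels.

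Both agents were also set against lactate, which asks what I-BET762 adds in cells that have lactate. No member was called, and 0% of all tested genes were called (edgeR), nor did DESeq2 or limma-voom call a member. At an unadjusted p under 0.05 there were 4 members, all lower with both agents: PHGDH (log2 fold change -0.27), SHMT2 (-0.33), MTHFD1L (-0.32) and MTHFD2 (-0.22). By the same rule there were 2294 of the 14690 tested genes, counting both directions. PSAT1 was at -0.24 (95% interval -0.52 to 0.03). These 5 genes were each lower in all libraries with both agents than in any lactate library, where 3.78% of tested genes were. The lowest adjusted p among them was 0.258, for SHMT2. The direction of MTHFD1 was the opposite (0.17, adjusted p = 0.615), and it turned to -0.09 without lactate replicates 1 and 4.

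The test of whether the lactate difference itself depended on I-BET762, the interaction term, called no member and no gene (0% of all tested genes) with edgeR; DESeq2 and limma-voom called 0 members. SHMT2 alone of the members passed an unadjusted threshold of 0.05 (adjusted p = 0.70, edgeR), where 894 of the 14690 tested genes did. Its lactate difference was lower by 0.41 on the log2 scale in the presence of I-BET762 (95% interval -0.74 to -0.07). The interaction of PHGDH was -0.35 (-0.72 to 0.03), that of PSAT1 -0.14 (-0.53 to 0.25) and that of MTHFD2 -0.10 (-0.40 to 0.20). The members called in only one of the lactate comparisons are therefore not shown to differ between them.

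Both agents against control, which shares its control libraries with 2 of the comparisons above and its both-agent libraries with 2, gave the greatest number of calls. There were 7 lower members, where 7.72% of tested genes were lower, and 1 higher member, where 13% were. The groups did not overlap for these 8, as for 14.8% of tested genes in the lower direction and 16.5% in the higher. The log2 fold changes were -0.93 for PSAT1 (SE 0.13, adjusted p = 0.000287), -0.76 for MTHFD2 (SE 0.10, adjusted p = 0.000208) and -1.05 for ALDH1L2 (SE 0.25, adjusted p = 0.00741). They were -0.56 for MTHFD1L, -0.52 for PSPH and -0.51 for PHGDH, with adjusted p-values of 0.00262, 0.00671 and 0.00896. These 6 calls held under all 28 alternatives. MTHFD1 was at the threshold (-0.50, SE 0.17, adjusted p = 0.0499) and lost its call under 20 of 28, among them any single control or both-agent library left out. SLC25A32 was 3.02-fold higher (log2 fold change 1.60, SE 0.46, adjusted p = 0.021), a call lost without control replicate 1 or 3 or both-agent replicate 1 or 4 (adjusted p up to 0.0707). SHMT1 (0.10) and SHMT2 (-0.10) were not called, and SHMT2 was called lower only with correction for GC content (-0.40, adjusted p = 0.0468).

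The spread between libraries differed by group for some members. With both agents the coefficient of variation of ALDH1L2 was 4.57% and that of SHMT2 2.05%, and in lactate-treated cells they were 44.3% and 13.2%. PSAT1 varied most in the controls (19.5%, and 10.8% with lactate). Such a difference is not particular to the members: GART, a purine synthesis gene outside them, was at 26.4% with lactate and 2.22% with both agents. The spread of all genes by group is not given here. The heat map of library levels shows 3 patterns in the 9 better counted genes. PHGDH, PSAT1, PSPH, MTHFD1L and MTHFD2, picked after their values were seen, varied together from library to library: their 10 pairs had Pearson correlations of log2 CPM from 0.80 to 0.99 over 16 libraries, and from 0.46 to 0.95 after each group's mean was removed. The closest pair was PSAT1 and MTHFD2 (0.99, and 0.95 within groups). SHMT1 and MTHFD1, the cytosolic pair, correlated at 0.55, and at 0.88 within groups, with lactate replicate 1 low in both. SHMT2 correlated negatively with SHMT1 (-0.60, and -0.58 within groups). With PSAT1 it correlated at 0.19 over all libraries and at 0.55 within groups, with MTHFD2 at 0.21 and 0.69, and with PHGDH at 0.51 and 0.82. The points share libraries, and with them depth and base composition.

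**Figure D3:**
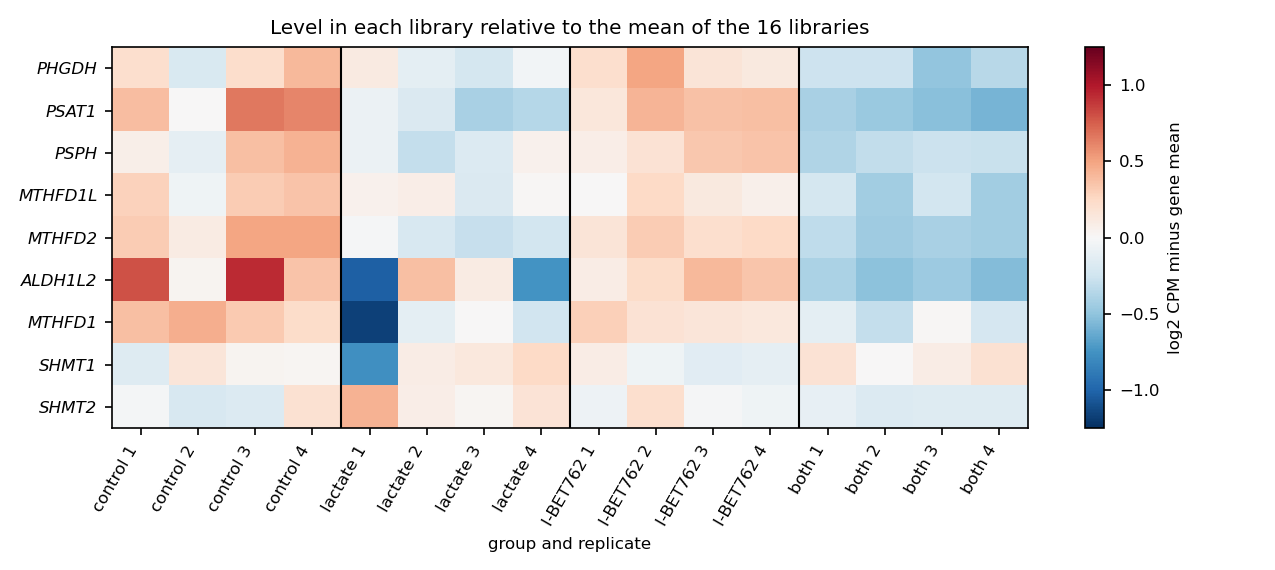
Level of 9 members in each library, as log2 CPM minus the gene's mean over the 16 libraries (colour scale, red above and blue below the mean; SLC25A32 is left out for its low counts). Columns are libraries by group and replicate; the 5 top genes are below their mean in all 4 libraries with both agents, and lactate replicate 1 is the lowest library of ALDH1L2, MTHFD1 and SHMT1 and the highest of SHMT2.

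For 4 members the genes with the most similar pattern were sought among the 10671 genes that averaged 5 CPM or more, by Pearson correlation of log2 CPM over the 16 libraries. For PSAT1 they were MTHFD2 (0.989), SCO1 (0.969) and TARS1 (0.968). For MTHFD2 they were PSAT1 (0.989), TARS1 (0.974) and NARS1 (0.972), the latter 2 being aminoacyl-tRNA synthetases. For PHGDH they were SOCS2 (0.913), TIMM44 (0.911) and SMOX (0.906), and for SHMT2 S100A16 (0.960), TIMP1 (0.948) and MAZ (0.929). The lists of PSAT1 and MTHFD2 share 1 gene besides each other, and those of PHGDH and SHMT2 share none with them.

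Of 38 other genes of serine and one-carbon metabolism, 36 were tested (ALDH1L1 and AMT were not). In lactate against control 6 fell and 2 rose, where 10.1% of all tested genes fell and 13.6% rose, and their median log2 fold change was -0.20. With both agents against I-BET762, 2 fell and 1 rose, where 1.57% of all tested genes fell and 3.34% rose, with a median of -0.04. The serine and neutral amino acid transporters SLC1A4 and SLC1A5 fell in both comparisons, 25.0% of the 8 called genes of the first and 66.7% of the 3 of the second. SLC1A4 stood at 50.6 ± 10.9 CPM in control, 23.0 ± 4.03 with lactate, 53.8 ± 7.27 with I-BET762 and 23.7 ± 1.09 with both agents (SD, n = 4 each). Its log2 fold changes were -1.13 (adjusted p = 0.000323) and -1.18 (adjusted p = 0.000529). SLC1A5, better known as a glutamine carrier, stood at 323 ± 89.8, 224 ± 12.9, 347 ± 39.3 and 180.1 ± 11.2 CPM in the same order. It fell by 0.53 (adjusted p = 0.0216), a call lost without control replicate 3 or 4 (adjusted p = 0.0628 and 0.0857), and by 0.95 (adjusted p = 0.00202) on the log2 scale.

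Other parts of the pathway moved less evenly. GART, a folate-using enzyme of purine synthesis, fell in lactate against control (-0.72, SE 0.15, adjusted p = 0.00349) and was at -0.42 in both agents against I-BET762 (adjusted p = 0.114). None of the other 5 tested purine enzymes was called in either comparison, and SFXN1, the mitochondrial serine carrier, fell in the first (-0.31, adjusted p = 0.0186), a call lost under 6 of 28 alternatives, correction for GC content among them. FPGS, which adds the glutamate tail that retains folates in cells, rose in lactate against control (0.74, adjusted p = 0.00178), but with correction for GC content it was at 0.18 (adjusted p = 0.286). SDSL, a serine dehydratase-like enzyme, rose in the same comparison (1.15, adjusted p = 0.00331; 0.73 and 0.0379 with that correction). SRR, the serine racemase, rose in both agents against I-BET762 (0.57, adjusted p = 0.0196), a call lost without I-BET762 replicate 2 or both-agent replicate 3 (adjusted p = 0.0642 and 0.0625). Of the 36, I-BET762 alone called 0 and both agents against lactate 0 with edgeR, with 3 and 5 at an unadjusted p under 0.05. Over all 14690 tested genes, 1682 and 2294 had an unadjusted p under 0.05 in the same comparisons. In both agents against control 5 rose and 7 fell, where 13% of all tested genes rose and 7.72% fell. Among them were SLC1A4 (-1.09), SLC1A5 (-0.85), FPGS (0.67), SRR (0.66) and GART (-0.63). The FPGS call was lost with correction for GC content, with or without exon length (down to 0.036, adjusted p up to 0.883). The other calls named held under all 28 alternatives.

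**Figure D4:**
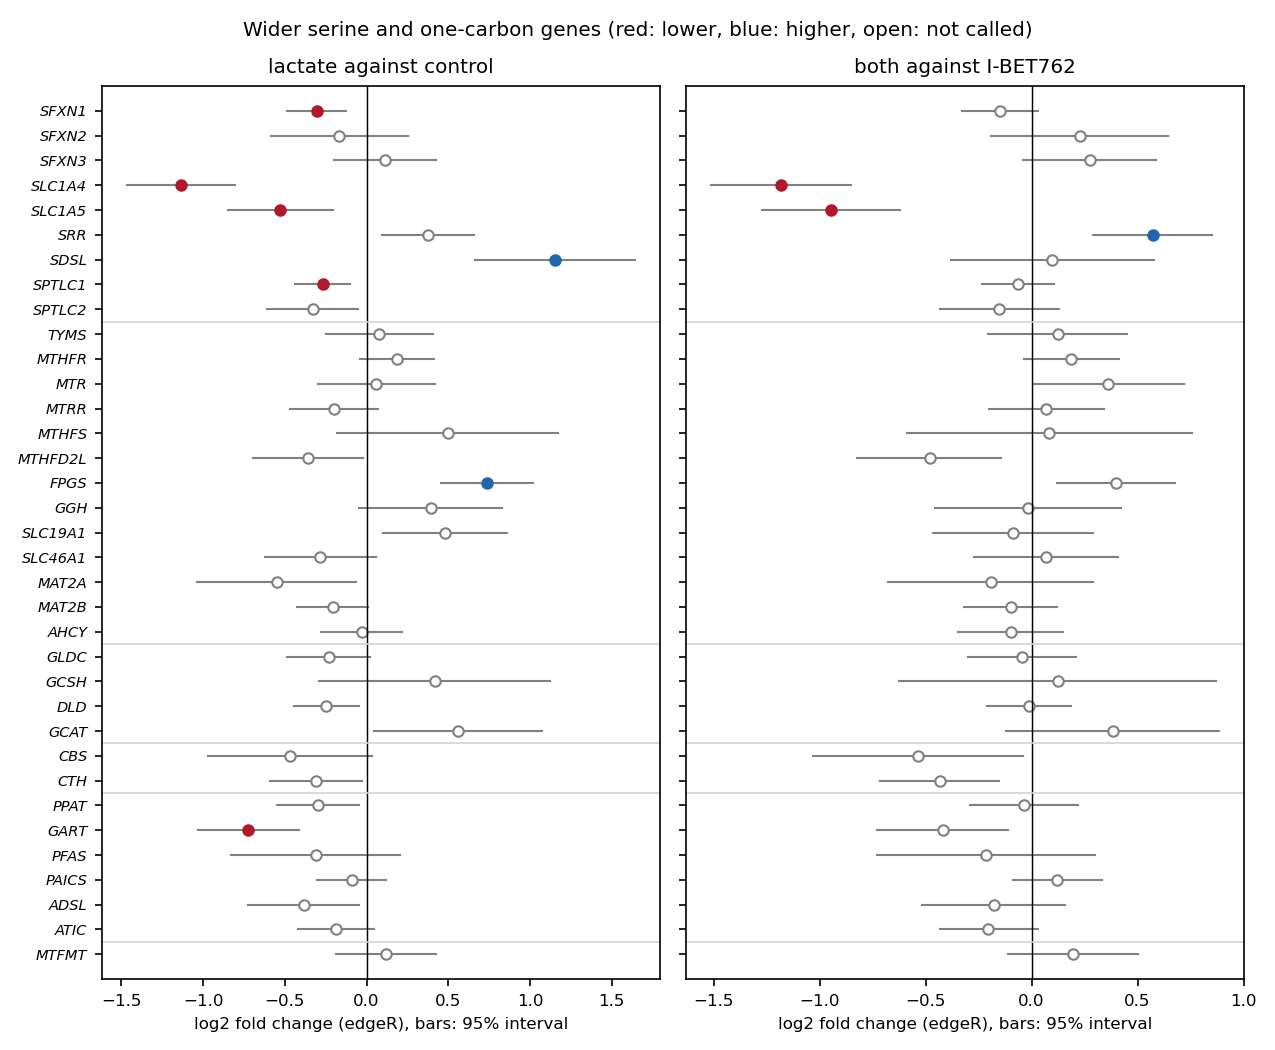
Log2 fold changes of 35 of the 36 other tested genes of serine and one-carbon metabolism in lactate against control (left) and in both agents against I-BET762 (right). Points are edgeR estimates with 95% intervals, filled red where the gene fell, filled blue where it rose and open where not called, and grey lines separate transport and use of serine, folate and methionine cycles, glycine, transsulfuration, purine synthesis and formyl use. SLC1A4 and SLC1A5 are the genes filled on both sides.

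Transcripts of 3 known regulators of these enzymes were read beside them. ATF4 was at 608.6, 516.9, 605.5 and 642.1 CPM in the controls and at 772.7, 475.1, 466.4 and 567.9 CPM with lactate. It was at 616.8, 649.7, 591.4 and 571.6 CPM with I-BET762 and at 500.3, 472.3, 436.7 and 468.2 CPM with both agents. Its log2 fold change in lactate against control was -0.06 (adjusted p = 0.782), with lactate replicate 1 above every control, and it was -0.33 and called (adjusted p = 0.0214) without lactate replicates 1 and 4. In both agents against I-BET762 the groups did not overlap, and the value was -0.37 (adjusted p = 0.13; 0.0119 without lactate replicate 1). NFE2L2, which encodes NRF2, was at -0.28 (adjusted p = 0.0876) and -0.27 (adjusted p = 0.202) in the 2 comparisons. Without lactate replicate 1 it was called lower in both, at -0.45 (adjusted p = 0.000773) and -0.26 (adjusted p = 0.0216). MYC was at -0.13 (adjusted p = 0.406) and -0.11 (adjusted p = 0.629), and it was called lower in lactate against control with correction for GC content (-0.42, adjusted p = 0.0227) and for GC content and exon length (-0.50, adjusted p = 0.00712). ATF4 protein is set largely at the level of translation, which these data do not measure.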

How the data were processed

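RNA was isolated from 16 DU145 cultures (4 groups of 4), and libraries were prepared from 800 ng of total RNA with a directional kit and sequenced as single-end 75-base reads, per the labels' protocols. The authors deposited 1 table of read counts per Ensembl gene. STAR 2.6.1c, DESeq and the builds GRCh38.p12 and hg38 are named per the submitters' processing notes; which program counted reads, on which annotation and with which strand setting, is not given in these sources. Groups were taken from the sample titles, since the cell line field of the 4 both-agent samples carries other line numbers. Symbols, positions, exon lengths and GC content came from GENCODE, matching 58735 of the 64792 identifiers.

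Genes were filtered with edgeR 4.0.16 (filterByExpr, minimum count 10, minimum total 15), leaving 14690 genes with at least 99.82% of the counts of each library. Counts were TMM-scaled and fitted with a quasi-likelihood model of 4 group means (12 residual degrees of freedom, common biological coefficient of variation 0.183), tested two-sided without a fold threshold and adjusted by Benjamini-Hochberg over all tested genes. CPM are TMM-scaled, intervals are 95% intervals of the fold change, and log2 CPM for correlations used a prior count of 2. The steps were tested on simulated data. Alternatives were RLE or total-count scaling, no filter, a mean of at least 5 CPM, DESeq2 1.42.0, limma-voom 3.58.1, a replicate block, correction for GC content (99.37% of tested genes had a value) and exon length, the compared groups fitted alone, and left-out libraries. R was 4.3.3.

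The members, the gene lists and the motifs were chosen with earlier results of these data known. Named genes are the 10 members, up to 6 changed genes of the wider list per comparison with the smallest p, 3 regulators, HEXIM1 as a check of the labels, and the 3 genes most similar in pattern to each of 4 members; some genes under this rule are not reported here. Antisense and overlapping genes are uncertain where the strand setting is unknown: ALDH1L2 shares 145 exon bases with C12orf45, MTHFD1 178 with ZBTB25, MTHFD2 1324 with SLC4A5 and SLC25A32 406 with DCAF13, each on the opposite strand. No sequence was used for the promoters of PSPH, SHMT2, ALDH1L2 and SLC25A32.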

Additional observations from a re-analysis of the deposited data

Results flagged for a closer look

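Of 56 sets of 4 libraries looked at, 3 had 1 library set far apart from the other 3. That share is near the 1 in 20 that chance gives. SHMT2 was at 389.9 CPM in the library labelled I-BET762 replicate 2, against 323.1 to 333.8 CPM in the other 3 of that label. NFE2L2 was at 164.7 CPM in lactate replicate 1, against 106.8 to 115.5 CPM in the other 3 lactate libraries. The HEXIM1 level in the library labelled control replicate 2 was 135.1 CPM, against 70.01 to 77.38 CPM in the other 3 controls.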

How the results depend on the processing

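PSAT1 and MTHFD2 were called lower in lactate against control, in both agents against I-BET762 and in both agents against control under all 28 alternatives. In lactate against control the count of changed members, 4, became 2 when those groups were fitted alone (PSAT1 and MTHFD2; calls over all genes 889, 170 of them lower) and 7 with control replicate 2 and I-BET762 replicate 2 (labels as deposited) both left out, and ranged from 3 to 7 when single libraries were left out (7 without control replicate 2). In both agents against I-BET762 the count of 5 ranged from 3 (without I-BET762 replicate 3 or 4) to 7 (without lactate replicate 1). In I-BET762 against control the count of 0 became 1, SLC25A32, without the filter on low counts, with DESeq2, with those groups fitted alone and without lactate replicates 1 and 4, and ranged from 0 to 1 with single libraries left out (1 without lactate replicate 1). Calls over all genes there rose from 65 to 492, 542, 496 and 815 in the same order, and to 516 without lactate replicate 1. The cause of these shifts was not tested, except that fitting groups alone uses fewer libraries.

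Every value that changed sign belonged to an uncalled difference. With a mean of at least 5 CPM these were the ALDH1L2 interaction (-0.028), ATF4 (0.009) and SHMT1 (0.027) in lactate against control. With GC correction they were the ALDH1L2 interaction (-0.076), SHMT2 in lactate against control (-0.036) and SHMT2 in I-BET762 against control (-0.10), and with GC and exon length correction the ALDH1L2 interaction (-0.12) and SHMT2 in I-BET762 against control (-0.09). Without lactate replicates 1 and 4 they were the ALDH1L2 interaction (-0.43), MTHFD1 in both agents against lactate (-0.093) and SHMT1 in lactate against control (0.10). Without control replicate 2 and I-BET762 replicate 2 they were PHGDH (-0.12), PSPH (-0.038) and SHMT2 (-0.041) in I-BET762 against control, the interactions of MTHFD2 (0.007) and PSAT1 (0.018), and SHMT1 in lactate against control (0.013). With single libraries left out the values ran from -0.15 to 0.28 for the ALDH1L2 interaction, -0.24 to 0.025 for ATF4 and -0.14 to 0.14 for SHMT1 in lactate against control, and -0.032 to 0.29 for MTHFD1 and -0.039 to 0.24 for SHMT1 in both agents against lactate. They ran from -0.028 to 0.20 for PHGDH and -0.058 to 0.15 for PSPH in I-BET762 against control, from -0.15 to 0.014 for SHMT2 in both agents against control and from -0.14 to 0.22 for SLC25A32 in both agents against I-BET762.

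GC correction made the called genes of both agents against control 48.5% higher ones, and lowered their number from 3045 to 1549. It lowered the calls over all genes in lactate against control from 3486 to 2004. With the replicate number as a block, 5 members changed in lactate against control, all lower (PSPH added), 5 in both agents against I-BET762 and 7 in both agents against control, where MTHFD1 lost its call (adjusted p = 0.054). Calls over all genes were 4244, 973 and 3549 with the block, where they had been 3486, 720 and 3045. The labels name no source shared by libraries of the same number. In the data, 16 of 24 same-numbered pairs of libraries had a correlation of deviations above 0.1 (-0.26 to 0.42), and 7 of 16 libraries matched best with their own number. Whether the numbers mark a batch was not tested, and the main model holds no replicate block. SLC25A32 gives no value under the mean of at least 5 CPM, and its 2 to 30 counts per library limit what can be said of it.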
